A study of Mus musculus with 6 samples.

Results

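Heterotrimeric G proteins and their regulators were examined in platelets as 10 genes of 14975 in the deposited expression table, taken by gene symbol from a fixed list of names. The 10 genes were the G alpha subunit genes Gnaq, Gna13, Gnai2, Gnas and Gnaz, the G beta subunit gene Gnb1, the G gamma subunit gene Gng11, and Rgs18, Rgs10 and Rgs2, which encode regulators of G protein signaling (RGS proteins). All 10 were found in the table, and 9 had a mean of at least 1 FPKM (fragments scaled to transcript length and to library depth) and entered the gene-wise test. RNA-seq had been run on blood platelets of control mice (3 libraries, genotype WT in the labels) and pre-AML mice (3 libraries, genotype AML), both on a C57BL/6 background.

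By the study's methods, control mice were irradiated recipients of normal bone marrow. Pre-AML mice were sub-lethally irradiated and had received GFP+ cells transformed with a retrovirus carrying the fusion oncogene MLL-AF9, and their platelets were taken 1 week after transplantation, before leukocytosis. The mice were females of 8 to 12 weeks, and the recipients were CD45.1 or C57BL/6. Irradiation and transplantation were thus shared by both groups, and circulating platelets could come from the host or from the graft. Platelets had been purified from platelet-rich plasma by removing CD45+ and Ter119+ cells. The series description speaks of 2 replicates per group and of 3 to 4 mice pooled per library, whereas 3 libraries per group were analysed here and the methods speak of independent mice, so p-values measure only the spread between these libraries.

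In a resting platelet a G alpha subunit holds GDP and sits with a beta gamma pair beneath a receptor for thrombin, ADP, thromboxane or prostacyclin. An activated receptor exchanges the GDP for GTP, and the freed subunits act on their effectors until the alpha subunit hydrolyses its GTP. The product of Gnaq activates phospholipase C beta and calcium release, that of Gna13 drives shape change, those of Gnai2 and Gnaz restrain adenylyl cyclase downstream of P2Y12 and of the adrenaline receptor, and that of Gnas stimulates adenylyl cyclase and so holds platelets at rest. RGS proteins speed up GTP hydrolysis and shorten the signal.

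The end of an alpha subunit touches the receptor and helps to set which receptors it serves, so the last 33 coding bases before the stop codon are shown for the 5 alpha genes. They are GENCODE M21 transcript sequences (GRCm38, sense strand), and capitals mark the fourth codon before the stop codon.
Gnaq: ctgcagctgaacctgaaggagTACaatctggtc
Gna13: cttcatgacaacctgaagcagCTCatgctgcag
Gnai2: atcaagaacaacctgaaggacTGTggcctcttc
Gnaz: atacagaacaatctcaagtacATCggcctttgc
Gnas: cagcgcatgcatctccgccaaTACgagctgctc
In Gnai2 the capitals are a cysteine codon, which is the residue that pertussis toxin modifies in the Gi subunits, and Gnaz, whose product is known to resist the toxin, has another codon there. Gnai2 and Gnaz were identical at 23 of the 33 bases, the most of the 10 pairs, and Gnai2 and Gnas at 11, the fewest. For Gnas, 7 of 14 coding transcripts carried this end.

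The most abundant member was Gng11, and its coding sequence of 222 bases with the stop codon is given whole, since it was the G protein message that dominated these libraries. Capitals mark the 4 codons before the stop, the box through which a gamma subunit receives its lipid anchor.
Gng11: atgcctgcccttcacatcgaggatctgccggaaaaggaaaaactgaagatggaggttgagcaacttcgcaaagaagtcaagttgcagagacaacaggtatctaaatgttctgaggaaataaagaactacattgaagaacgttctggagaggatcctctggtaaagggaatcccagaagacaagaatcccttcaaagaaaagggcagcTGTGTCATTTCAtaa

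The libraries held between 11935964 and 17778636 reads on listed genes, as recovered from the FPKM values. All 16 platelet markers examined were at 1 FPKM or more in control platelets. Pre-AML replicate 3 stood apart from the other 5 libraries on the first principal component (41.9 against -12.7 to -2.12, 70.2% of the variance), so results are also given without it. The Spearman correlation across genes between a gene's deviation from its own mean and its GC content ran from -0.40 to -0.30 in the controls and was -0.05, 0.31 and 0.49 in pre-AML replicates 1, 2 and 3. Of 4412 genes tested, 1 was higher in pre-AML platelets at an adjusted p under 0.05 (0.0227% of those tested) and 0 were lower.

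In control platelets the members ranged from rank 6 (Gng11) to rank 9783 (Rgs2) of the 14975 genes. Gng11 was the sixth most abundant transcript of the table at 17367 ± 1496 FPKM (SD, n = 3), with Rgs18 at 1269 ± 102 FPKM, Rgs10 at 890.1 ± 15.1 FPKM and Gnas at 475 ± 36.9 FPKM next in order. Then came Gnai2 at 59.0 ± 6.27 FPKM, Gnaz at 41.8 ± 7.12 FPKM, Gnb1 at 27.9 ± 2.01 FPKM, Gnaq at 14.95 ± 2.69 FPKM and Gna13 at 4.35 ± 0.601 FPKM. Rgs2 closed the order at 0.0652 FPKM, on 4, 4 and 1 reads in the control libraries. None of the 9 neighbouring pairs in this order overlapped between control libraries, the narrowest step being from Gnai2 to Gnaz, a ratio of 1.41, and the widest from Gna13 to Rgs2. The order is per length and depends on the gene length used. Gnas, with a length of 11186 bp, had 56728, 78335 and 65768 reads in controls. Rgs18, with 2031 bp, had fewer reads (27479, 38389 and 31660), as had Rgs10, with 1711 bp (17745, 21847 and 17904). Within the families one gene usually predominated: Gng11 gave 98.3% of the summed FPKM of 11 gamma subunit genes, Gnb1 82.4% of that of 5 beta subunit genes and Rgs18 58.6% of that of 18 RGS genes.

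**Figure D1:**
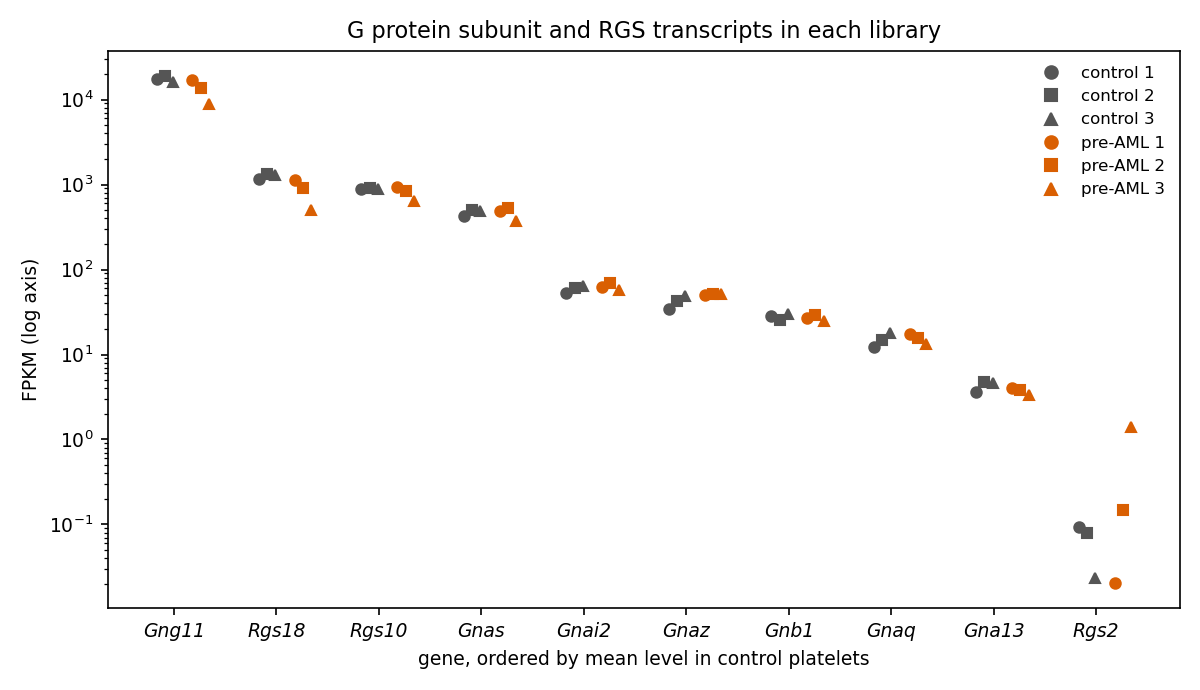
FPKM of the 10 genes (log axis) in each control and pre-AML library, one point per library, with genes in order of their control mean. Gng11 lies at 8886 FPKM or more in every library and Rgs2 below 0.15 FPKM in every library except pre-AML replicate 3, where it reads 1.41 FPKM.

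Between pre-AML and control platelets, none of the 9 tested members passed an adjusted p of 0.05 by limma. Rgs18, the major RGS transcript of platelets, was the 1 member with an unadjusted p under 0.05, and it was lower in pre-AML libraries. Over all tested genes 9.09% had an unadjusted p under 0.05, with 6.53% lower and 2.56% higher in pre-AML platelets. The log2 fold change was above 0 for 3 members (Gnaz, Gnai2 and Gnaq) and below 0 for 6, against 41.5% and 58.5% of all tested genes. The median over the 9 members was -0.05, against -0.06 over all tested genes. With every library scaled to the same summed FPKM, the median over the same 4412 genes was 0.09, so the sign of small differences depends on the scaling.

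Rgs18 (Entrez 64214, chromosome 1 from 144752683 to 144775435, minus strand, GRCm38) encodes an RGS protein largely confined to megakaryocytes and platelets, which acts on Gi and Gq subunits. It read 1153, 1343 and 1310.0 FPKM in control replicates 1, 2 and 3 and 1147, 923 and 499 FPKM in pre-AML replicates 1, 2 and 3. Every pre-AML library was thus below every control, though pre-AML replicate 1 only just, and pre-AML replicate 3 stood lowest at 39.3% of the control mean. No overlap in this direction was seen for 12.8% of all tested genes.

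The log2 fold change of Rgs18 on the log2(FPKM + 1) scale was -0.65 (SE 0.28, 95% interval -1.28 to -0.01), with an adjusted p of 0.522 by limma. Without pre-AML replicate 3 it was -0.30, adjusted p 0.523 by limma. The GC content of the Rgs18 transcript was 33.4%, and with each library's trend over gene length and GC content removed the log2 fold change was -0.17. In bulk platelet RNA, fewer platelets of one kind and less RNA per platelet cannot be told apart. As a share of each library's summed FPKM, Rgs18 was 0.213%, 0.258% and 0.254% in controls and 0.215%, 0.181% and 0.133% in pre-AML libraries, and on that scale pre-AML replicate 1 lay above control replicate 1.

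Rgs10 (Entrez 67865, chromosome 7 from 128373621 to 128418758, minus strand) encodes a small RGS protein acting mainly on Gi subunits. Its levels were 884, 907 and 879 FPKM in controls and 939, 850.4 and 646 FPKM in pre-AML libraries. The highest and the lowest values were both from pre-AML platelets, and the log2 fold change was -0.15 (95% interval -0.51 to 0.21, adjusted p 0.702 by limma). Without pre-AML replicate 3 it was 0.01.

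Rgs18 and Rgs10 made up nearly all RGS message, and their balance was compared within each library, where a common scaling factor drops out. A trend over GC content does not drop out, and the GC content was 33.4% for Rgs18 and 50.7% for Rgs10. With each library's length and GC trend removed, the log2 fold changes were -0.17 for Rgs18 and -0.09 for Rgs10. Rgs18 was 56.5%, 59.6% and 59.8% of the summed FPKM of the 18 RGS genes in controls and 54.9%, 52.0% and 43.1% in pre-AML libraries. The groups did not overlap, and the difference was -8.65 percentage points, or -5.21 without pre-AML replicate 3. The two-sided exact permutation test gave p = 0.1, the smallest that 3 against 3 libraries can give, and 0.267 after Benjamini-Hochberg adjustment over 4 such shares.

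**Figure D2:**
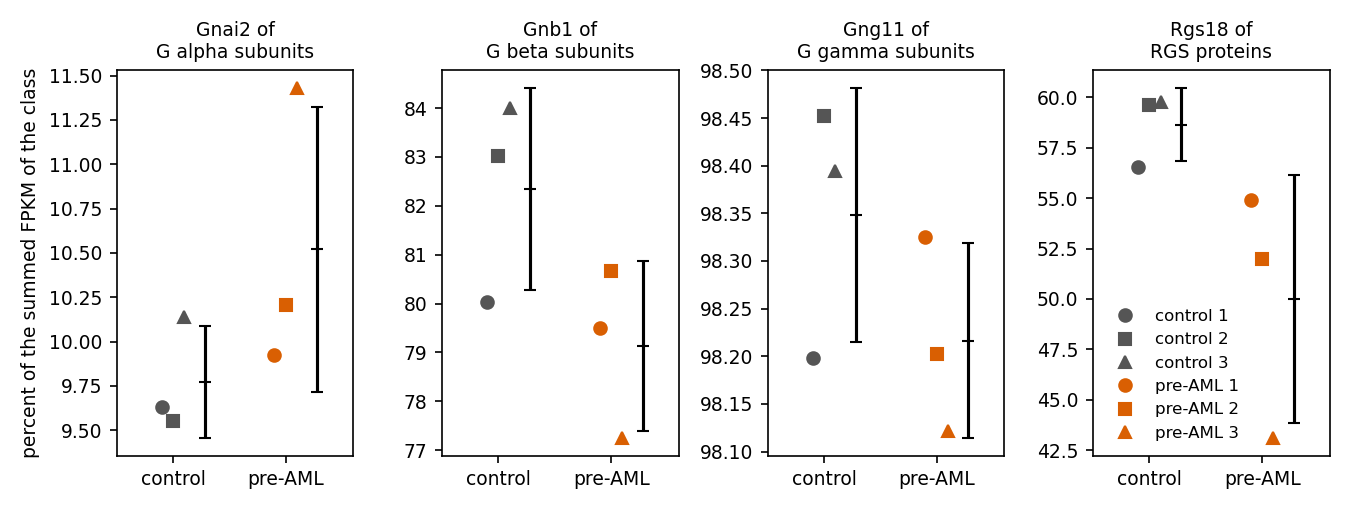
Share (%) of a family's summed FPKM held by its leading gene or, for G alpha, by Gnai2, per library (points), with the mean and SD of each group (n = 3) beside them. The vertical axes do not start at 0, and the Rgs18 share is the one in which no pre-AML library reaches the control range.

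Rgs2 (Entrez 19735, chromosome 1 from 143999338 to 144004161, minus strand) encodes an RGS protein with a preference for Gq and lies 749 kb from Rgs18. It read 0.0940, 0.0784 and 0.0232 FPKM in controls and 0.0207, 0.146 and 1.41 FPKM in pre-AML libraries. These values rest on 4, 4 and 1 reads in controls and 1, 8 and 119 reads in pre-AML libraries, so a single library held most of the Rgs2 reads. The gene was below the expression minimum and was not tested.

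Other rare transcripts of these families were also more abundant in pre-AML replicate 3. Of the 47 subunit and RGS genes listed, 22 were at 1 FPKM or more in that library and 15 or 16 in each of the others. Over the whole table, 13571 genes were above 0 in that library and 11301 to 12609 in the others. The share of all genes at 1 FPKM or more was not counted, so the rise is not shown to be particular to these families. The 6 genes at 1 FPKM or more in that library alone were Rgs2 and, named after their values were seen, Gna15, Gng10, Gngt2, Rgs14 and Rgs19. Gna15, a Gq family member of blood cells, was listed at 0 in the other 5 libraries and at 2.53 FPKM there. Rgs19 was at 0.0377 to 0.416 FPKM in the other libraries and 5.98 FPKM there, and Gngt2 at 0.151 to 0.272 FPKM and 6.17 FPKM. Gng10 was at 0.299 to 0.904 FPKM in the other libraries and 5.42 FPKM there, and Rgs14 at no more than 0.302 FPKM and 2.46 FPKM. For Rgs19, Gng10 and Rgs14, pre-AML replicates 1 and 2 were also above every control, on 8 to 17 reads each. All pre-AML libraries were above all controls for 6.14% of all tested genes. Gna15, Gngt2 and Rgs2 overlapped between groups.

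Markers of monocytes, macrophages and B cells were also highest in that library. All 14 monocyte and macrophage markers were above all controls in pre-AML replicate 3, with 10 in replicate 2 and 4 in replicate 1. Without Lyz2, which was abundant in every library, the other 13 summed to 0.546 to 1.80 FPKM in controls and to 5.49, 7.03 and 440 FPKM in pre-AML replicates 1, 2 and 3, and Cd14, Fcgr1 and Ccr2 were at 0 in all controls. Of 12 B cell markers, 0, 9 and 11 were above all controls in pre-AML replicates 1, 2 and 3, their sums were 1.93 to 2.23 FPKM in controls and 1.21, 23.5 and 271 FPKM in pre-AML libraries, and Pax5 and Blk were at 0 in all controls. Of 13 T and NK cell markers 10, 9 and 12 were above all controls, and without Nkg7, which was at 18.9 to 28.2 FPKM in every library, the other 12 summed to 0.139 to 0.546 FPKM in controls and 13.7, 7.47 and 27.2 FPKM in pre-AML libraries, with Cd3g, Cd2, Ncr1 and Prf1 at 0 in all controls. The 12 neutrophil markers summed to 3.19 to 3.66 FPKM in controls and 4.998, 2.24 and 2.69 FPKM in pre-AML libraries, and the 7 erythroid markers to 2351 to 2653 FPKM and 2991, 2884 and 2377 FPKM. Without Hba-a1 the other 6 erythroid markers summed to 1041 to 1452 FPKM in controls and 968, 1085 and 656 FPKM in pre-AML libraries. The part of these cells in the levels of Rgs2 and of the other 5 genes was not tested.

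**Figure D3:**
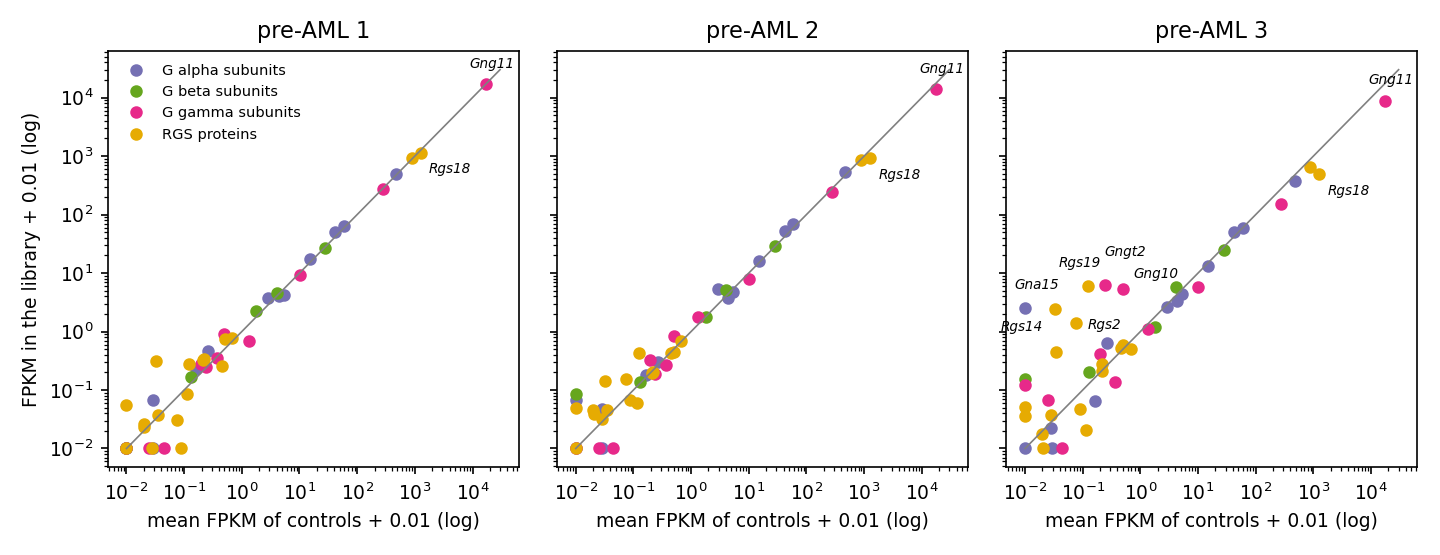
FPKM of the 47 G protein subunit and RGS genes in each pre-AML library against their control mean (both axes log, 0.01 added), with the line of equality. In pre-AML replicate 3 the abundant Gng11 and Rgs18 lie below the line, and Gna15, Rgs14, Rgs19, Gngt2, Gng10 and Rgs2 lie far above it.

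Gng11 (Entrez 66066, chromosome 6 from 4003904 to 4008445, plus strand) encodes a gamma subunit that pairs with beta subunits at the platelet membrane. It read 17244, 18920 and 15936 FPKM in controls and 16957, 13828 and 8886 FPKM in pre-AML libraries. Pre-AML replicate 1 lay within the control range, and pre-AML replicates 2 and 3 lay below it, at 79.6% and 51.2% of the control mean. Gng11 was 3.18%, 3.63% and 3.09% of each library's summed FPKM in controls and 3.18%, 2.72% and 2.36% in pre-AML libraries. The log2 fold change was -0.44 (SE 0.22, 95% interval -0.95 to 0.07, adjusted p 0.522 by limma), and without pre-AML replicate 3 it was -0.18 (adjusted p 0.658 by limma).

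Of the 16 platelet markers, 8 were below all controls in pre-AML replicate 3, 7 lay within the control range and 1, Nrgn, was above it, with a median log2 ratio to controls of -0.21. The 16 platelet markers summed to 91497 to 115393 FPKM in controls and to 92670, 94083 and 62922 FPKM in pre-AML replicates 1, 2 and 3. Pf4 and Ppbp, the most abundant of them, weigh most in these sums. Pf4, which encodes platelet factor 4, was at 58030 to 79255 FPKM in controls and at 38150 FPKM in that library, and the chemokine gene Ppbp at 16221 to 20466 FPKM and 10090 FPKM. Summed over all genes, FPKM came to 376148 in pre-AML replicate 3 and to 508605 to 541784 in the other libraries. These FPKM levels are thus not shares of an equal total. With each library centred on the median of the platelet markers, the log2 fold change was -0.39 for Gng11 and -0.60 for Rgs18.

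Gng11 predominated among gamma subunits in both groups. It held 98.2%, 98.5% and 98.4% of the summed FPKM of its family in controls and 98.3%, 98.2% and 98.1% in pre-AML libraries, a difference of -0.13 percentage points (exact permutation p = 0.3, adjusted 0.3). The next gamma genes were Gng5, with a mean of 278.5 FPKM in controls and 223 FPKM in pre-AML platelets, and Gng12, with 10.1 and 7.70 FPKM. Their log2 fold changes were -0.36 and -0.36, adjusted p 0.555 and 0.522 by limma, and -0.10 and -0.20 without pre-AML replicate 3.

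Gnb1 (Entrez 14688, chromosome 4 from 155491361 to 155559269, plus strand) encodes the main platelet G beta subunit. It read 28.2, 25.8 and 29.8 FPKM in controls and 26.9, 29.5 and 24.5 FPKM in pre-AML libraries. The groups overlapped, with a log2 fold change of -0.05 (95% interval -0.36 to 0.26, adjusted p 0.892 by limma). Its share of the summed G beta FPKM was 80.04%, 83.0% and 84.0% in controls and 79.5%, 80.7% and 77.2% in pre-AML libraries (exact permutation p = 0.2, adjusted 0.267). Gnb2, the next beta gene, had means of 4.09 and 5.13 FPKM in control and pre-AML platelets (log2 fold change 0.28, adjusted p 0.537 by limma), and Gnb5, whose product pairs with certain RGS proteins, 1.79 and 1.71 FPKM.

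Among the alpha subunits, Gnaz (Entrez 14687, chromosome 10 from 74967177 to 75016907, plus strand) encodes Gz, a Gi family member found mainly in platelets and neurons, which couples the alpha 2 adrenergic receptor. It read 34.3, 42.6 and 48.4 FPKM in controls and 49.6, 52.0 and 51.2 FPKM in pre-AML libraries. In FPKM every pre-AML library was above every control, a pattern seen in 6.14% of all tested genes. The pre-AML libraries lay close together in FPKM while the controls were spread. Gnaz was 0.00633%, 0.00818% and 0.00939% of each library's summed FPKM in controls and 0.00931%, 0.0102% and 0.0136% in pre-AML libraries. On that scale pre-AML replicate 1 lay below control replicate 3. The log2 fold change was 0.29 (SE 0.15, 95% interval -0.06 to 0.65, adjusted p 0.526 by limma).

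The value for Gnaz was 0.29 without pre-AML replicate 3 and 0.16 without control replicate 1, the lowest control. Rsph14, which overlaps Gnaz on the opposite strand, was at 0.590 to 1.30 FPKM in the 6 libraries, and the library preparation did not keep strand. Of the summed G alpha FPKM without Gnas, Gnaz made up 30.8%, 32.7% and 33.5% in controls and 34.7%, 34.2% and 37.7% in pre-AML libraries.

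Gnai2 (Entrez 14678, chromosome 9 from 107614125 to 107635367, minus strand) encodes the Gi subunit through which P2Y12 acts. It read 52.3, 60.0 and 64.8 FPKM in controls and 63.0, 70.0 and 57.8 FPKM in pre-AML libraries. The groups overlapped (log2 fold change 0.11, 95% interval -0.22 to 0.44, adjusted p 0.769 by limma). Its share of the summed G alpha FPKM was 9.63%, 9.55% and 10.1% in controls and 9.92%, 10.2% and 11.4% in pre-AML libraries (exact permutation p = 0.2, adjusted 0.267). Gnai2 was 11.0 times as abundant per length as its close relative Gnai3 in control platelets. Gnai3 had means of 5.34 and 4.45 FPKM in control and pre-AML platelets, with a log2 fold change of -0.22 (adjusted p 0.537 by limma). In FPKM every pre-AML library was below every control, as for 12.8% of all tested genes. As a share of summed FPKM, Gnai3 was highest in pre-AML replicate 3, at 0.00116% against 0.000975% to 0.00107% in controls.

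Gnaq (Entrez 14682, chromosome 19 from 16132831 to 16387463, plus strand) encodes Gq, on which thrombin and thromboxane receptors depend for calcium release. It read 12.3, 14.9 and 17.7 FPKM in controls and 17.6, 15.8 and 13.4 FPKM in pre-AML libraries. All pre-AML values lay within the control range (log2 fold change 0.06, 95% interval -0.33 to 0.45, adjusted p 0.892 by limma), and the sign turned when control replicate 1 (-0.06) or pre-AML replicate 1 (-0.02) was left out. Its relative Gna11 was at 0.253 FPKM in control platelets, and Gna14, 48.3 kb away on the same chromosome, was listed at 0 in all controls.

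Gna13 (Entrez 14674, chromosome 11 from 109362831 to 109401369, plus strand) was the least abundant alpha subunit among the members. It read 3.66, 4.77 and 4.62 FPKM in controls and 4.05, 3.80 and 3.38 FPKM in pre-AML libraries. The groups overlapped (log2 fold change -0.17, 95% interval -0.50 to 0.16, adjusted p 0.631 by limma). An antisense gene at the locus, Gm11696, was at 0.288 to 1.10 FPKM, and reads of both strands cannot be told apart. Gna12, the other gene of this family, had means of 2.89 and 3.91 FPKM in control and pre-AML platelets (log2 fold change 0.31, adjusted p 0.593 by limma).

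Gnas (Entrez 14683, chromosome 2 from 174284320 to 174346744, plus strand) gave the most G alpha message per length. It read 432, 498 and 494 FPKM in controls and 492, 534 and 369 FPKM in pre-AML libraries. The highest and the lowest value were both pre-AML (log2 fold change -0.04, 95% interval -0.42 to 0.34, adjusted p 0.930 by limma), and without pre-AML replicate 3 the value was 0.11. The locus gives several products from alternative first exons and holds the antisense gene Nespas, and the FPKM value sums over what the authors' annotation counted as Gnas.

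**Figure D4:**
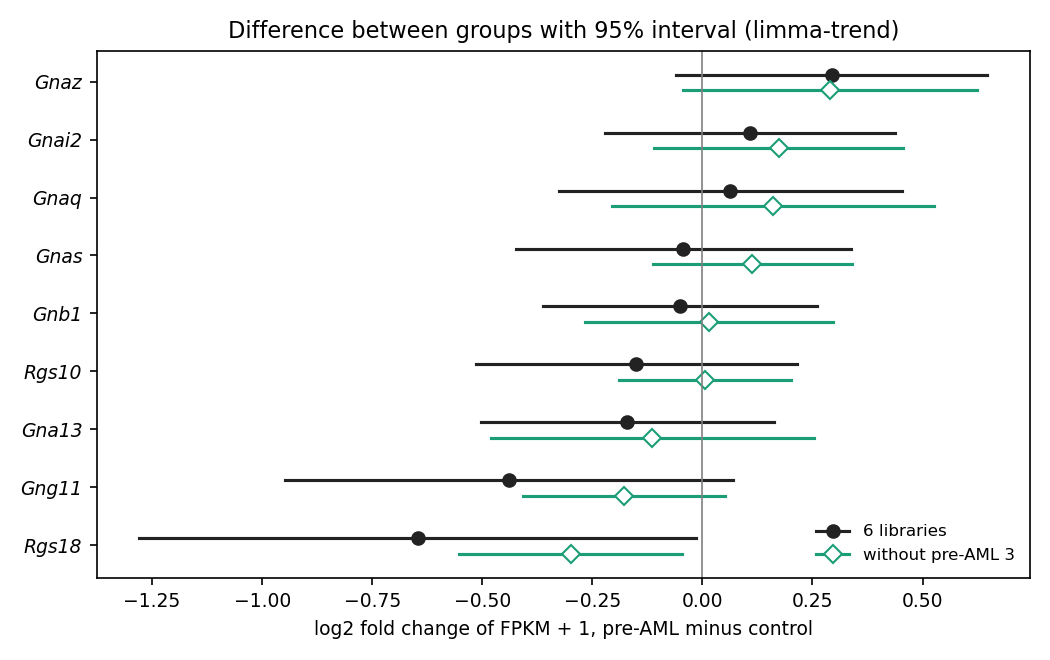
Log2 fold change (pre-AML minus control, log2(FPKM + 1) scale) with its 95% interval for the 9 tested genes, with all 6 libraries and without pre-AML replicate 3. Without that library Rgs18 moves from -0.65 to -0.30 and Gng11 from -0.44 to -0.18, and Gnaz stays at 0.29.

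The size of the Rgs18, Gng11 and Gnaz differences varied over the 16 settings of the gene test, though their signs did not. Rgs18 ranged from -0.90 without pre-AML replicate 1 to -0.17 with the length and GC trend removed. Its unadjusted p by limma was under 0.05 in 11 settings. It was not when any single control was left out, with no filter or with the length and GC trend removed. Gnaz ranged from 0.16 without control replicate 1 to 0.47 with every library scaled to the same summed FPKM, with an unadjusted p under 0.05 in 4 settings. Gng11 ranged from -0.64 without pre-AML replicate 1 to -0.18 without pre-AML replicate 3, with an unadjusted p under 0.05 in 4 settings. The lowest adjusted p of any member under any setting was 0.312.

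**Figure D5:**
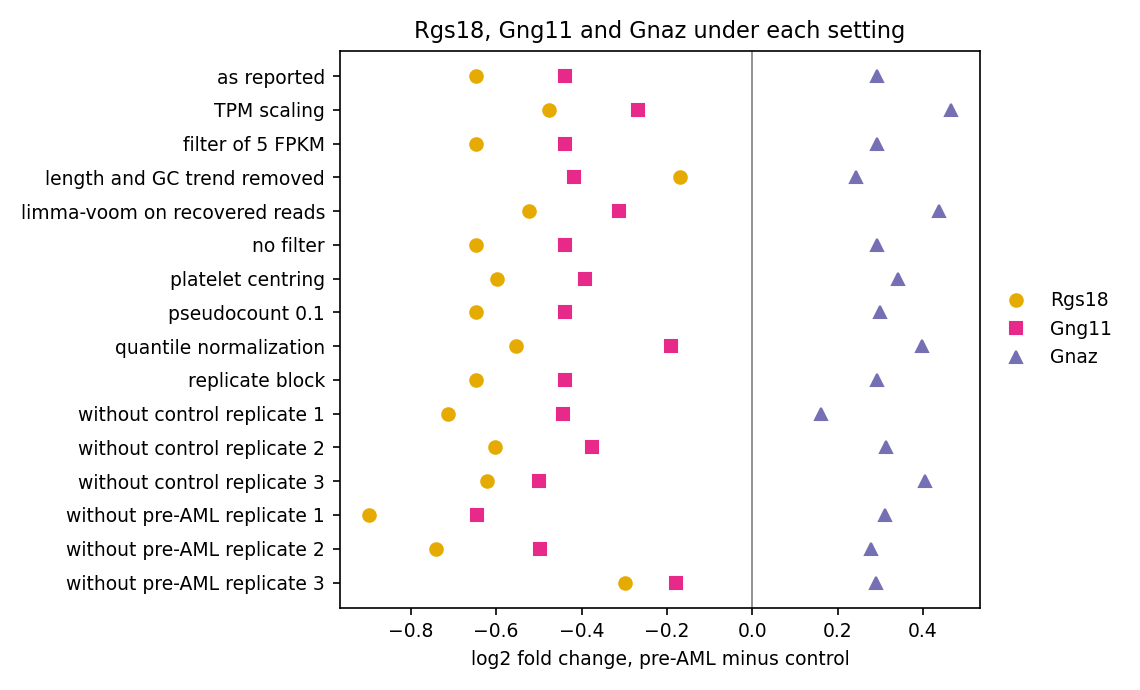
Log2 fold change (pre-AML minus control) of Rgs18, Gng11 and Gnaz under each of the 16 settings of the gene test, one row per setting and one symbol per gene. All points of Rgs18 and Gng11 lie below 0 and all points of Gnaz above 0, with the Rgs18 points spread from -0.90 to -0.17.

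The wider machinery around the members was described through 8 lists with 107 genes in the table, 57 of them tested. No gene of these lists passed an adjusted p of 0.05 by limma, and 3 had an unadjusted p under 0.05, against 9.09% of all tested genes. These were Rgs18, Rap1b and Prkar2b, all lower in pre-AML platelets, whereas scaling to equal summed FPKM gave 3 higher and 3 lower of 64 list genes tested, and limma-voom on recovered reads 3 higher and 6 lower of 57. Of 13 G alpha genes listed, 7 were tested, 4 with a log2 fold change above 0 and 3 below. Of 5 G beta genes 3 were tested (1 above, 2 below). Of 11 G gamma genes 6 were tested and of 18 RGS genes 3, but Gng10, Gngt2 and Rgs19 passed the 1 FPKM minimum only through pre-AML replicate 3. The other 4 gamma genes and 2 RGS genes were all below 0 with the 6 libraries, and Rgs10 was at 0.01 without that library. Rgs9 and Rgs6, the RGS genes next in control level after Rgs18 and Rgs10, were at 0.671 and 0.499 FPKM.

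Chaperones and modulators of G proteins had mixed signs, with 2 of 6 tested genes above 0 and 4 below. Ric8a, a chaperone for alpha subunits, had means of 18.8 and 18.2 FPKM in control and pre-AML platelets (-0.05), and Ywhag, a 14-3-3 gene, 19.1 and 17.0 FPKM (-0.16).

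Of 12 receptor genes listed, 7 were tested. The log2 fold change was below 0 for all 7 (median -0.25), against 58.5% of all tested genes. It was below 0 for 6 of 7 without pre-AML replicate 3 (median -0.16, against -0.03 over all tested genes). The same count, 6 of 7, held under each other scaling tried. The untested receptors had group means under 1 FPKM, all higher in pre-AML than in control platelets, and were highest in pre-AML replicate 3. P2ry12, the ADP receptor that signals through Gnai2, had means of 1197 and 973 FPKM (-0.33, adjusted p 0.555 by limma), and F2rl2, which encodes the thrombin co-receptor PAR3, 420.4 and 340.3 FPKM (-0.31, adjusted p 0.526 by limma). Of 20 tested effectors and second messenger genes, 16 were below 0 and 4 above (median -0.12), but 9 were below and 11 above with equal summed FPKM, and 12 of 19 were below without pre-AML replicate 3 (median -0.03).

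Rap1b, the small GTPase that turns on platelet integrins, read 484, 565 and 538 FPKM in controls and 470.1, 404 and 242 FPKM in pre-AML libraries. Its log2 fold change was -0.56 (SE 0.24, adjusted p 0.522 by limma), and -0.28 without pre-AML replicate 3. Prkar2b, a regulatory subunit of the cyclic AMP-dependent kinase that acts downstream of Gnas, read 184, 193 and 214 FPKM in controls and 162, 153 and 98.7 FPKM in pre-AML libraries. Its log2 fold change was -0.54 (SE 0.20, adjusted p 0.522 by limma), and -0.32 without pre-AML replicate 3. In both genes every pre-AML library was below every control, as for 12.8% of all tested genes. As in Rgs18, pre-AML replicate 1 was the highest and replicate 3 the lowest of the pre-AML libraries. The GC content was 39.9% for Rap1b and 44.1% for Prkar2b, and the part of GC content in this order was not tested.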

How the data were processed

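Platelet cDNA had been made with SMART-Seq2 and libraries with Nextera XT. Per the labels and methods, the authors aligned reads with STAR to mm10 and used DESeq2. The deposited values are FPKM per gene, normalized by the authors. The counting program and annotation are not given in the sources used here. Columns were matched to samples by name.

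The 10 genes, the gene lists and the tests were chosen with earlier results of these data known. Values were tested as log2(FPKM + 1) with limma 3.58.1 (R 4.3.3), with an intensity trend, where the 6 libraries averaged 1 FPKM or more, pre-AML minus control, and adjusted by Benjamini-Hochberg over 4412 genes. The pseudocount of 1 understates changes of low genes. The script was tested on simulated data with 4-fold changes, where 185 of 185 changed genes and 3 of 4209 unchanged genes were called. Smaller changes, a deviating library and a GC trend were not simulated. Shares of a family were compared by two-sided exact permutation tests (scipy 1.17.1).

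Gene lengths, GC content and positions came from GENCODE M21 (GRCm38), which had a length for 14911 of the 14975 genes. With these lengths 85.3% of values were whole reads within 0.05, and 11720 genes were whole in all libraries. Recovered depths on listed genes were 11935964 to 17778636 reads. The library sizes inferred as the divisor of the FPKM values ran from 11737700 (control replicate 1) to 23330400 (pre-AML replicate 3). At these sizes 3 reads on a 2 kb transcript correspond to 0.128 and 0.0643 FPKM. The inferred size was 1.31 times the recovered reads in pre-AML replicate 3 and 0.983 to 1.01 times in the other libraries.

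Alternatives were another pseudocount (0.1), no filter or a minimum of 5 FPKM, scaling to equal sums, quantile normalization, centring on platelet markers, removal of length and GC trends, limma-voom on recovered reads, a replicate block and leaving out each library. Beside the members, the text names the tested list genes with an unadjusted p under 0.05 and the 2 genes of highest control level in each list, close relatives of the members, and the 3 tested genes with the nearest profile to each of the 3 most variable members. Marker genes are named as examples of their lists. Gnao1, Gnat1, Gnat3, Gngt1, Rgs7, Rgs17 and Rgs20 were not analysed here. The genes of 1 of the 8 lists are not reported here by name.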

Additional observations from a re-analysis of the deposited data

How the results depend on the processing

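No member and no list gene passed an adjusted p of 0.05 by limma in any of the 16 settings. limma-voom on recovered reads put 1 member higher and 2 lower at an unadjusted p under 0.05, against 0 and 1. The 1 gene called over the whole table became 0 with equal summed FPKM, the 5 FPKM minimum, limma-voom, no filter or platelet centring, and 0 to 2 when a library was left out. Genes higher and lower at an unadjusted p under 0.05 numbered 113 and 288, against 332 and 206 of 5920 tested genes with equal summed FPKM (293 and 199 of the same 4412), 230 and 267 with limma-voom, 497 and 373 with no filter and 135 and 148 with the length and GC trend removed. Signs turned for members near 0, and the cause was not tested. Gnas was 0.13 with equal summed FPKM, 0.0877 with limma-voom, 0.0042 with platelet centring and 0.0498 with quantile normalization, and -0.15 to 0.11 with a library left out. Gnb1 was 0.12, 0.0855 and 0.0602 with equal sums, limma-voom and quantile normalization, 0.0547 with the length and GC trend removed, and -0.12 to 0.0150 with a library left out. Rgs10 was 0.0214 with equal sums and -0.26 to 0.00559 with a library left out, and Gnaq -0.0604 to 0.18. The share of Gnai2 among G alpha subunits differed by -0.34 percentage points when summed log2 values were used. Gna13 has no value at the 5 FPKM minimum, and Rgs2 has one only with no filter (0.41).

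Same-numbered libraries did not deviate together (correlations -0.04, -0.12 and -0.17, and 0 of 3 controls closest to its own number). With the replicate number as a block 0 members and 1 gene of the table were called, with 118 genes higher and 254 lower at an unadjusted p under 0.05. With 3 libraries a group, exact permutation cannot go below p = 0.1, and levels near 0.1 FPKM rest on a few reads.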

Other observations

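The relatives of Rgs18 on chromosome 1 were nearly silent beside it in control platelets. Rgs21, 185 kb away, was at 0.104 FPKM, Rgs1, 503 kb away, at 0.0247 FPKM, and Rgs13, 575 kb away, at 0, against 1269 FPKM for Rgs18. Gnat2, 5.85 kb from Gnai3, was at 0.0190 FPKM against 5.34 FPKM for Gnai3. Gna11 and Gna15, 4.50 kb apart, were both low, at 0.253 FPKM and listed at 0.

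Over the 6 libraries, the tested genes whose profile was closest to that of Rgs18 were Gm15050, Rap1b and Vmp1, with root mean square distances of 0.06, 0.08 and 0.09 on the log2 scale after each gene was centred. Rap1b is the GTPase described above. The genes closest to Gng11 were Ube2b, Amn1 and Rab11a (0.06 each). Those closest to Rgs2 were Tuba1b, Pepd and Tap2 (0.04, 0.08 and 0.08), which were all highest in pre-AML replicate 3. The Rgs2 match rests on the pseudocount of 1. Rgs2 had a control mean of 0.0652 FPKM and 1.41 FPKM in that library, and Tuba1b 4.97 and 12.2 FPKM. The distances are a description over 6 libraries that differ in depth, and pre-AML replicate 3 was the extreme library in each of these profiles.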
